A study of Homo sapiens with 9 samples.

Results

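The ephrin, Slit and netrin guidance genes are the receptors and ligands that steer cells and growing axons by contact and by secreted cues. They were chosen by symbol alone: every EPHA and EPHB receptor, every ephrin (EFNA and EFNB), ROBO1 to ROBO4, SLIT1 to SLIT3, the netrins NTN1, NTN3, NTN4 and NTN5, UNC5A to UNC5D, DCC and NEO1, which gave 39 of the 25886 symbols in the count table. Cells labelled HT29, an established line of human colorectal cancer, were sequenced as 3 Control, 3 DNMT1 knockdown and 3 DNMT3B knockdown libraries of rRNA-depleted total RNA. All of them, Control included, are labelled as puromycin selected. The knockdowns were stable and lentiviral, selected with puromycin at 1 µg/mL for 3 passages, and the column names give short hairpin RNAs, including one for Control. DNMT1 restores DNA methylation after replication and DNMT3B methylates new sites. The series was designed around their loss under proteasome inhibition, but the sample labels used here name no proteasome inhibitor. The labels do not say how many hairpins or clones a group holds, nor whether the replicates are separate cultures; the p-values therefore rest on a spread between libraries that may be technical only.

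Eph receptors are receptor tyrosine kinases that bind ephrins on the surface of a neighbouring cell. Ephrin-A ligands are held to the membrane by a lipid anchor and ephrin-B ligands cross it, so that contact can signal into the receptor cell and into the ligand cell. In the intestine EPHB2 and EPHB3 are known for keeping cells in their place along the crypt. Slit proteins are secreted and act on ROBO receptors, mostly as repellents. Netrins are secreted relatives of laminin that attract through DCC and neogenin (NEO1) and repel through UNC5 receptors. DCC takes its name from its deletion in colorectal carcinoma, and DCC and UNC5 receptors are also known as dependence receptors, which can trigger cell death when no netrin is bound.

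Libraries held 18.8 to 33.7 M counts (M is 1e6), with Control the deepest group. The targeted genes followed their labels. DNMT1 stood at 448, 468 and 457 CPM (counts per 1e6 counts of the scaled library) in Control and at 248, 249.7 and 257 CPM with DNMT1 knockdown, and DNMT3B at 60.9, 60.4 and 62.6 CPM in Control and at 32.8, 27.9 and 30.8 CPM with DNMT3B knockdown. DNMT1 was slightly higher with DNMT3B knockdown (log2 fold change 0.092 ± 0.032, adjusted p = 0.0171), and DNMT3B was not called with DNMT1 knockdown (adjusted p = 0.22). Each was lower in its own knockdown (log2 fold change -0.86 ± 0.033 for DNMT1, and DNMT3B at 49.9% of Control by the fitted fold change; exact two-sided permutation p = 0.1 each, the smallest that 3 against 3 libraries can give). The permutation test gave the same p for DNMT1 with DNMT3B knockdown and for DNMT3B with DNMT1 knockdown, so it does not separate these from the targeted falls. Of 12 colon epithelial markers, KRT8, KRT18, KRT19, EPCAM, CDH1, CLDN4, CDX2 and ELF3 were at 38.2 CPM or more in Control, while KRT20 and VIL1 were near 1 CPM, LGALS4 was lower still and CDX1 had 1 count in all libraries together. The summed levels in Control, DNMT1 and DNMT3B knockdown were 2569 to 2686, 2718 to 2850 and 2729 to 2979 CPM for these, 319 to 324, 355 to 357 and 304 to 308 CPM for 12 neuronal markers, 10.9 to 12.3, 11.9 to 14.4 and 13.4 to 15.5 CPM for 9 endothelial markers, 25.8 to 30.4, 29.4 to 34.1 and 38.9 to 41.6 CPM for 8 stromal markers, and 21.6 to 22.5, 22.5 to 23.4 and 36.2 to 41 CPM for 8 leukocyte markers. The neuronal sum was mostly TUBB3, MAPT and SYT1, with STMN2, GAP43, NEFM and NEFL at 7 counts or fewer in all. The leukocyte sum was mostly CD68, at 17.7 CPM in Control, 18.0 CPM with DNMT1 knockdown and 32.9 CPM with DNMT3B knockdown, with PTPRC, CD3E and LYZ under 0.15 CPM in each group. The stromal sum was mostly COL1A1, at 17.6 CPM in Control, 21.5 CPM with DNMT1 knockdown and 27.5 CPM with DNMT3B knockdown. ACTA2 (5.27, 5.69 and 7.26 CPM) and THY1 (5, 4.06 and 5.29 CPM) came next, and COL1A2 and DCN had no count in any library. The part of these markers in the results below was not tested. In bulk RNA, fewer cells with a transcript and less of it per cell cannot be told apart.

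Per kilobase of exon, which allows levels of different genes to be compared, EPHA2 and EPHB4 were the most abundant guidance mRNAs. In Control, EPHA2 stood at 50.3 ± 1.39 CPM per kb (SD, n = 3) and EPHB4 at 29.7 ± 0.815. The ephrins EFNA2 (17.7 ± 1.3), EFNA3 (12.3 ± 0.589) and EFNB2 (11 ± 0.581) and the netrin receptor NEO1 (12.5 ± 0.217) came next. ROBO3 (2.73 ± 0.153) was the highest ROBO receptor, NTN1 (1.79 ± 0.0923) the highest netrin and SLIT2 (1.11 ± 0.015) the highest Slit, all under the ephrins just named. Lengths are unions of exons in GENCODE 29 and may not be those the authors counted over. With the longest transcript as length, EPHA2, EPHB4 and EFNA2 kept ranks 1, 2 and 3 in Control. EPHA1 then moved from rank 7 to rank 4, ahead of NEO1, EFNA3 and EFNB2.

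**Figure D1:**
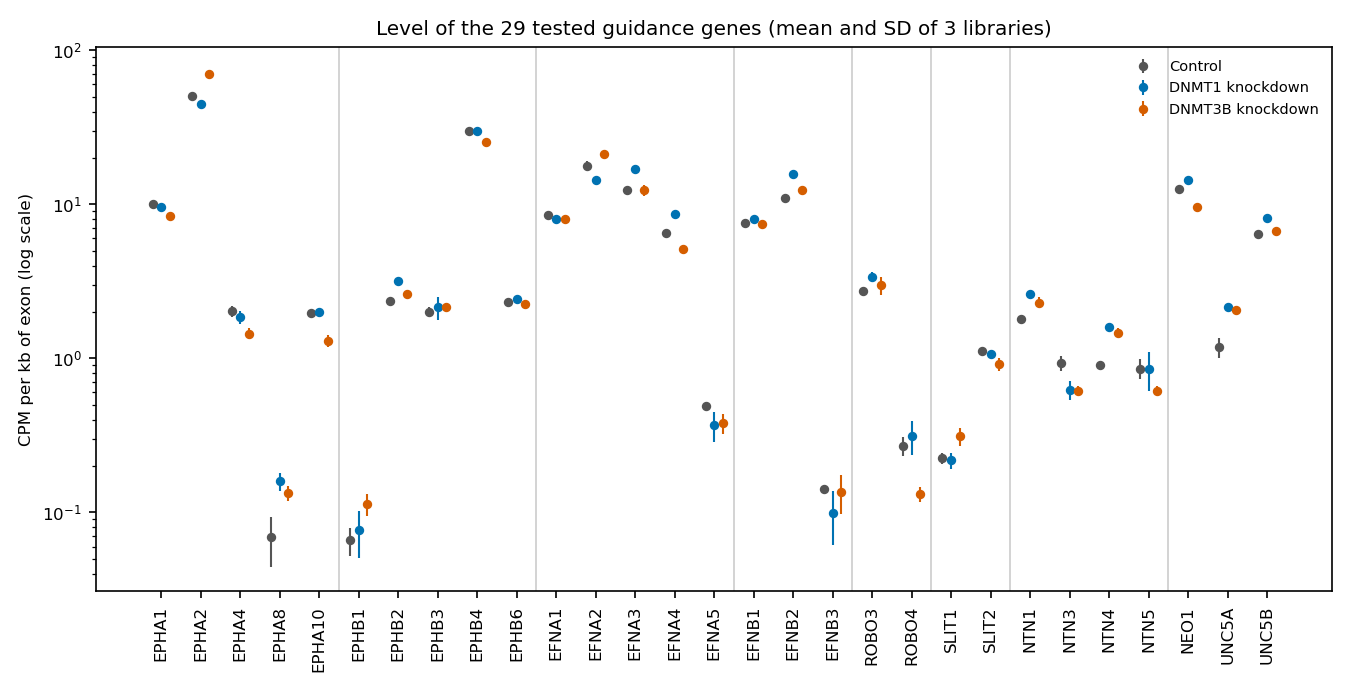
Levels of the 29 tested guidance genes in CPM per kilobase of exon, on a log axis. Points are means and bars SDs of 3 libraries, in grey for Control, blue for DNMT1 knockdown and orange for DNMT3B knockdown, and grey lines part the families. EPHA2 is highest in each group, and EPHA8 and EPHB1 are the lowest tested members in Control.

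Counted together, 15 of the 29 tested members passed the test in DNMT1 knockdown against Control, 20 in DNMT3B knockdown against Control and 18 in DNMT1 against DNMT3B knockdown. The test was edgeR's quasi-likelihood test with Benjamini-Hochberg adjustment over all 16660 tested genes, a call was an adjusted p below 0.05, and every adjusted p given here comes from it unless another tool is named. Among all tested genes the calls came to 41.8%, 47.7% and 45.2%. With DNMT1 knockdown 11 members rose and 4 fell, beside 21% and 20.8% of all genes. With DNMT3B knockdown 10 rose and 10 fell, beside 23.1% and 24.6%. Directly compared, 15 members were higher and 3 lower with DNMT1 than with DNMT3B knockdown, beside 24.3% and 20.9%. The median log2 fold changes over the tested members were 0.077, -0.02 and 0.19, and those over all tested genes were -0.0025, 0.0023 and 0.00091. Calls with a change of at least 1.3-fold numbered 10, 12 and 9 members, beside 11.4%, 15.4% and 14.3% of all genes. Both comparisons with Control use the same 3 Control libraries.

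Too few counts were found for a test of 10 members: DCC, EPHA3, EPHA5, EPHA6, EPHA7, ROBO1, ROBO2, SLIT3, UNC5C and UNC5D. EPHA3 and EPHA7, a pair of EphA receptors, had no count in any library. DCC, the attractive netrin receptor, had 3 counts over the Control, 2 over the DNMT1 knockdown and 4 over the DNMT3B knockdown libraries, and the netrin receptor mRNAs with enough counts to test were NEO1, UNC5B and UNC5A. Among the tested members, EPHA8 and EPHB1 did not reach the count cutoff in all Control libraries and entered the test through the knockdown libraries, so the counts above do not stand for all 39 members. Those counts include EPHA8 as higher with each knockdown and EPHB1 as higher with DNMT3B knockdown. No p is given for either below.

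**Figure D2:**
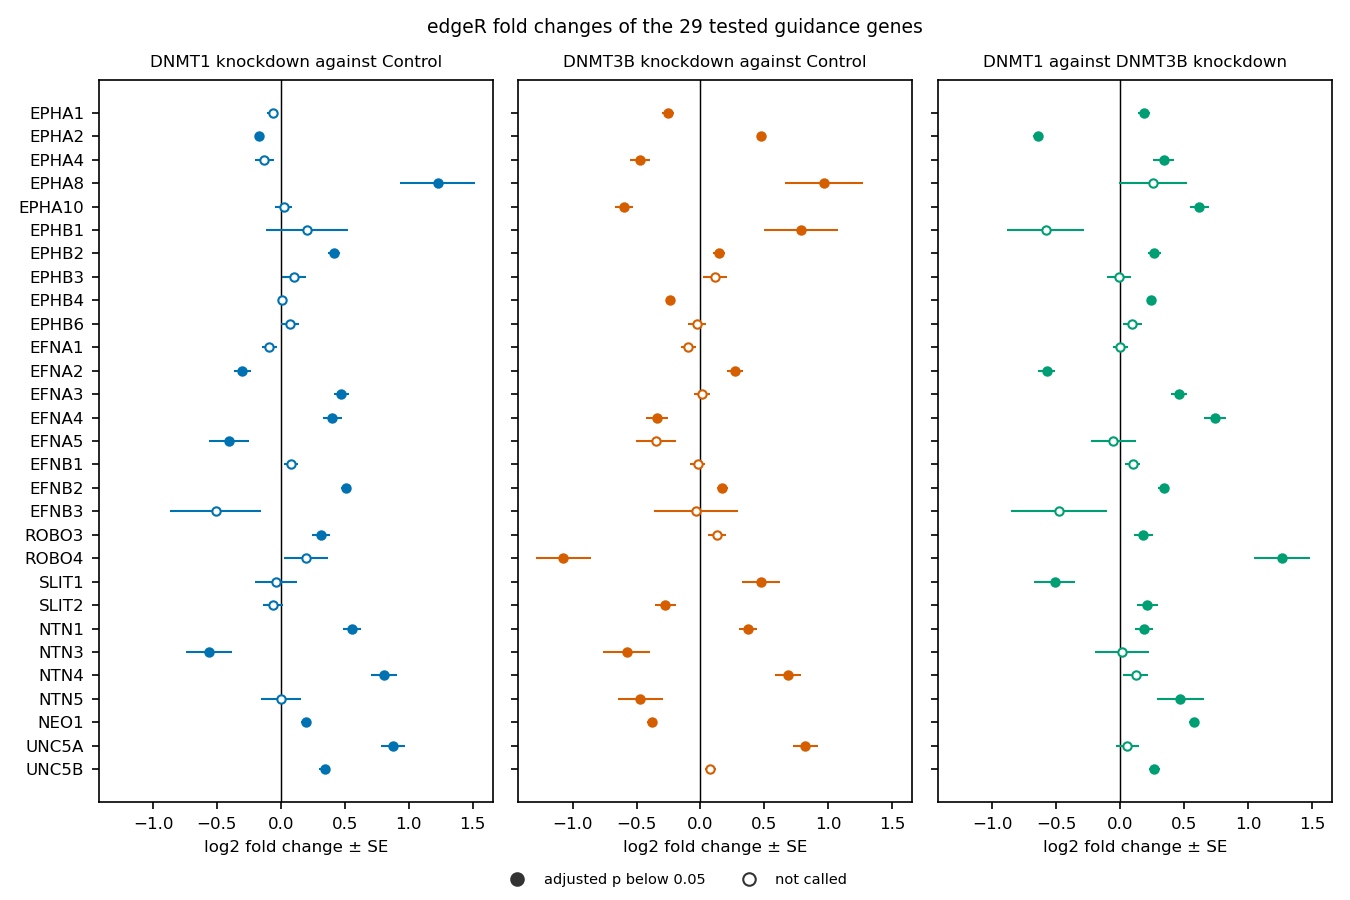
Log2 fold changes of the 29 tested guidance genes in the 3 comparisons, with standard errors as bars; filled points have an adjusted p below 0.05 and open points do not. EPHA2 lies left of 0 in the first panel (-0.17), right of it in the second (0.48) and left of it in the third (-0.64), and NEO1 the reverse (0.19, -0.38 and 0.58).

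Among the EphA receptors the direction turned on the member. All 5 tested members were called with DNMT3B knockdown, beside 47.7% of all tested genes, EPHA2 and EPHA8 higher and EPHA1, EPHA4 and EPHA10 lower. With DNMT1 knockdown 2 were called, beside 41.8% of all tested genes, EPHA2 lower and EPHA8 higher. Both counts include EPHA8, which entered the test through the knockdown libraries. EPHA2 (chromosome 1, 16124337 to 16156087 on GRCh38), a receptor for ephrin-A ligands that is abundant in many epithelial tumours, stood at 214, 203 and 211 CPM in the Control libraries, 182, 189.5 and 187 CPM with DNMT1 knockdown and 303, 283 and 287 CPM with DNMT3B knockdown. The 3 groups did not overlap, with DNMT3B knockdown highest and DNMT1 knockdown lowest. EPHA2 rose with DNMT3B knockdown (log2 fold change 0.48 ± 0.034, adjusted p = 5.1e-13) and fell with DNMT1 knockdown (log2 fold change -0.17 ± 0.035, adjusted p = 0.00022). The direct difference between the knockdowns was -0.64 ± 0.035 (adjusted p = 5.93e-16).

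EPHA10 (chromosome 1, 37713880 to 37765133), an Eph receptor that lacks kinase activity, was measured at 16.2, 15.5 and 16.3 CPM in the Control libraries, 16.8, 15.6 and 16.4 CPM with DNMT1 knockdown and 11.6, 10.1 and 9.96 CPM with DNMT3B knockdown. The DNMT3B knockdown libraries lay below the other 6, which overlapped each other. EPHA10 fell with DNMT3B knockdown (log2 fold change -0.60 ± 0.071, adjusted p = 2.47e-08), was not called with DNMT1 knockdown (log2 fold change 0.021 ± 0.065, adjusted p = 0.826), and the direct comparison was called (log2 fold change 0.62 ± 0.074, adjusted p = 2.54e-08). EPHA4 (chromosome 2, 221418027 to 221574202), which binds ephrins of both classes, had 16.6, 15 and 14.1 CPM in the Control libraries, 13.6, 15.4 and 12.9 CPM with DNMT1 knockdown and 10.8, 10.1 and 11.9 CPM with DNMT3B knockdown. Again the DNMT3B knockdown libraries were the lowest, and Control overlapped DNMT1 knockdown. EPHA4 fell with DNMT3B knockdown (log2 fold change -0.47 ± 0.079, adjusted p = 1e-05), while DNMT1 knockdown gave -0.13 (adjusted p = 0.165) and the direct comparison 0.34 ± 0.084 (adjusted p = 0.00122). EPHA1, the first receptor of the family to be described, fell by less with DNMT3B knockdown (log2 fold change -0.25 ± 0.048, adjusted p = 5.24e-05). It differed directly by 0.19 ± 0.049 (adjusted p = 0.00238), and its 3' end overlaps ZYX on the other strand. ZYX, at 282 CPM in Control, had a log2 fold change of 0.098 with DNMT3B knockdown (adjusted p = 0.0252), opposite in sign to EPHA1.

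EPHA8 (chromosome 1, 22563564 to 22603594), a receptor known mainly from the developing nervous system, was close to the detection limit. Its counts were 10, 14 and 9 in the Control libraries, 19, 23 and 19 with DNMT1 knockdown and 16, 15 and 18 with DNMT3B knockdown, or 0.298, 0.521 and 0.289 CPM in the Control libraries, 0.784, 0.98 and 0.79 CPM with DNMT1 knockdown and 0.655, 0.808 and 0.689 CPM with DNMT3B knockdown. Every knockdown library was above every Control library, and the knockdown groups overlapped each other. The log2 fold change of EPHA8 was 1.23 ± 0.29 with DNMT1 knockdown and 0.97 ± 0.31 with DNMT3B knockdown. EPHA8 entered the test through the knockdown libraries, where it was higher, so no p is given. With DNMT3B knockdown its call was lost with DESeq2 and without Control replicate 1. The 250 bases before its RefSeq start (GRCh38.p14, plus strand, chr1:22563239-22563488) are shown because they are among the richest in CG, the dinucleotide that DNA methyltransferases modify, of any member. CG pairs are in capitals.
EPHA8: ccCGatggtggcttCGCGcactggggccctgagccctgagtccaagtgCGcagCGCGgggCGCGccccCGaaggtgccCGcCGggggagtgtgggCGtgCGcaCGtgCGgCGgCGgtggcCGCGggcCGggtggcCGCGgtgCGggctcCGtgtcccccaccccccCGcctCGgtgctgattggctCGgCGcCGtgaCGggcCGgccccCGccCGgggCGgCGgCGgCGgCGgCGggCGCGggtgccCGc

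In the EphB receptors, EPHB2 rose with each knockdown and EPHB4 fell with DNMT3B knockdown, and EPHB3 and EPHB6 were not called in any comparison. EPHB2 (chromosome 1, 22710839 to 22921500), a WNT target that holds progenitor cells at the crypt base, was at 29.9, 28.5 and 30.7 CPM in the Control libraries, 41.3, 40.2 and 37.3 CPM with DNMT1 knockdown and 33.1, 32.3 and 33.1 CPM with DNMT3B knockdown. The 3 groups did not overlap, with Control lowest and DNMT1 knockdown highest. EPHB2 rose with DNMT1 knockdown (log2 fold change 0.41 ± 0.049, adjusted p = 3.31e-08) and less with DNMT3B knockdown (log2 fold change 0.14 ± 0.051, adjusted p = 0.0183), and the direct difference was 0.27 ± 0.05 (adjusted p = 4.81e-05). The smaller rise lost its call with DESeq2 (adjusted p = 0.0632), without Control replicate 2 (0.0685) and without DNMT3B knockdown replicate 3 (0.0535). EPHB3, its partner in crypt positioning, had log2 fold changes of 0.10 ± 0.093 (adjusted p = 0.399) and 0.11 ± 0.093 (adjusted p = 0.341); without DNMT1 knockdown replicate 1 the first was called (adjusted p = 0.0275). EPHB6, which lacks kinase activity, had 0.068 ± 0.07 and -0.026 ± 0.072.

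EPHB4 (chromosome 7, 100802565 to 100827521), the main receptor for ephrin-B2, was at 185, 193 and 196 CPM in the Control libraries, 188, 197 and 193 CPM with DNMT1 knockdown and 161, 165 and 161 CPM with DNMT3B knockdown. The DNMT3B knockdown libraries lay below all others. EPHB4 fell with DNMT3B knockdown (log2 fold change -0.24 ± 0.034, adjusted p = 8.29e-07) and was not called with DNMT1 knockdown (log2 fold change 0.0097 ± 0.034, adjusted p = 0.841), and the direct difference was 0.25 ± 0.034 (adjusted p = 5.36e-07). Its 5' end overlaps SLC12A9 on the other strand over 702 bases, and SLC12A9 differed the other way with DNMT3B knockdown (0.14, adjusted p = 0.017). EPHB1 (chromosome 3, 134597801 to 135260467), a receptor best known from axon crossing in the visual system, was low, at 0.537, 0.484 and 0.353 CPM in the Control libraries, 0.578, 0.682 and 0.332 CPM with DNMT1 knockdown and 0.9, 0.646 and 0.804 CPM with DNMT3B knockdown. The DNMT3B knockdown libraries were above Control, and DNMT1 knockdown overlapped both. The log2 fold change of EPHB1 with DNMT3B knockdown was 0.79 ± 0.29. DNMT3B knockdown was the only group with all its libraries over the count cutoff for EPHB1, so no p is given. The call of EPHB1 there was lost with DESeq2 and without Control replicate 3, DNMT3B knockdown replicate 1 or replicate 3. The gene KY lies across from it over 48499 bases, and KY was also higher with DNMT3B knockdown (0.60, adjusted p = 0.0266), so the source of these reads is uncertain where counting ignored strand.

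The 2 most abundant Eph receptors moved apart with DNMT3B knockdown, EPHA2 up and EPHB4 down. EPHA2 held 49.9% ± 0.82 (SD, n = 3) of the summed Eph receptor CPM per kb in Control, 46.6% ± 0.352 with DNMT1 knockdown and 61.6% ± 0.649 with DNMT3B knockdown. EPHB4 held 29.5% ± 0.961, 31.1% ± 0.063 and 22.2% ± 0.814. Counts of EPHA2 per count of EPHB4 in the same library were 1.16, 1.05 and 1.08 in Control, 0.97, 0.962 and 0.972 with DNMT1 knockdown and 1.88, 1.72 and 1.78 with DNMT3B knockdown. The ratio depends on no scaling between libraries, and the 3 groups did not overlap in it. Exact two-sided permutation tests gave p = 0.1 for each knockdown against Control and for the direct comparison, the smallest that 3 against 3 libraries allow. This pair was chosen after its values were seen.

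**Figure D3:**
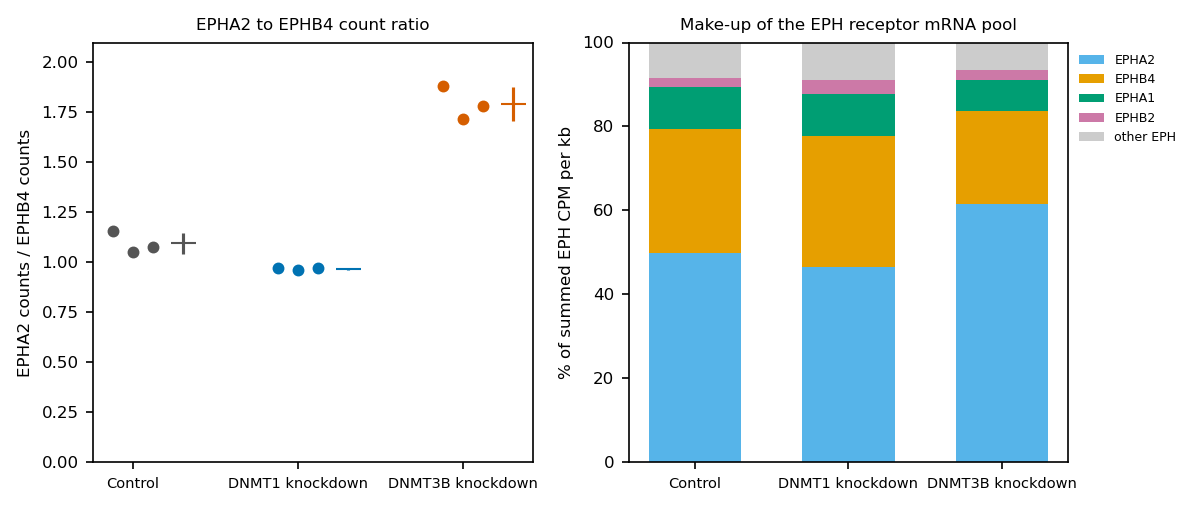
Left, counts of EPHA2 divided by counts of EPHB4 in each library (points), with the group mean and SD beside them; right, mean share of each receptor in the summed Eph receptor CPM per kb, in percent. The ratio is 1.10 in Control, 0.968 with DNMT1 knockdown and 1.79 with DNMT3B knockdown, and EPHA2 takes 61.6% of the pool in the last group.

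The ephrin-A ligands moved in different directions within each knockdown. With DNMT1 knockdown 4 of 5 were called, beside 41.8% of all tested genes, EFNA3 and EFNA4 higher and EFNA2 and EFNA5 lower. With DNMT3B knockdown, where 47.7% of all tested genes were called, EFNA2 was higher and EFNA4 lower. EFNA2 (chromosome 19, 1286154 to 1300237), the most abundant ephrin mRNA per kb in Control, was at 16, 16.2 and 18.2 CPM in the Control libraries, 13.2, 14.3 and 13.4 CPM with DNMT1 knockdown and 20.5, 19.3 and 20.9 CPM with DNMT3B knockdown. The groups did not overlap, in the order DNMT1 knockdown, Control, DNMT3B knockdown. EFNA2 fell with DNMT1 knockdown (log2 fold change -0.30 ± 0.067, adjusted p = 0.000492) and rose with DNMT3B knockdown (log2 fold change 0.27 ± 0.063, adjusted p = 0.000613). Directly compared, the difference was -0.57 ± 0.068 (adjusted p = 2.56e-08). EPHA2 had the same order of groups.

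EFNA3 (chromosome 1, 155078872 to 155087538) and EFNA4 (chromosome 1, 155063731 to 155069553) are neighbours on chromosome 1, and a readthrough transcript spans both in GENCODE 29, so some of their reads may not be assignable to 1 of them. EFNA3 was at 22.9, 22.8 and 24.8 CPM in the Control libraries, 31.1, 32.1 and 34.5 CPM with DNMT1 knockdown and 25.2, 21.3 and 24.1 CPM with DNMT3B knockdown. The DNMT1 knockdown libraries stood above all others, and Control and DNMT3B knockdown overlapped. EFNA3 rose with DNMT1 knockdown (log2 fold change 0.47 ± 0.057, adjusted p = 5.89e-08), was not called with DNMT3B knockdown (log2 fold change 0.011 ± 0.061, adjusted p = 0.902) and differed directly by 0.46 ± 0.06 (adjusted p = 1.47e-07). EFNA4 was at 8.44, 8.01 and 8.15 CPM in the Control libraries, 11.6, 10.7 and 10.3 CPM with DNMT1 knockdown and 6.42, 6.57 and 6.47 CPM with DNMT3B knockdown. Its 3 groups did not overlap, with DNMT1 knockdown highest and DNMT3B knockdown lowest. EFNA4 rose with DNMT1 knockdown (log2 fold change 0.40 ± 0.076, adjusted p = 7.43e-05), fell with DNMT3B knockdown (log2 fold change -0.34 ± 0.086, adjusted p = 0.00141) and differed directly by 0.74 ± 0.085 (adjusted p = 1.22e-08). EFNA1, the third member of this cluster and a ligand of EPHA2, was called in none of the comparisons, with log2 fold changes of -0.092 ± 0.058 and -0.095 ± 0.059.

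EFNA5 (chromosome 5, 107376889 to 107670895), an ephrin known from retinal mapping, was at 2.71, 2.98 and 2.63 CPM in the Control libraries, 1.61, 2.13 and 2.53 CPM with DNMT1 knockdown and 2.54, 1.99 and 1.95 CPM with DNMT3B knockdown. Both knockdown groups lay below Control and overlapped each other. EFNA5 was lower with DNMT1 knockdown (log2 fold change -0.40 ± 0.16, adjusted p = 0.0372) and missed the threshold with DNMT3B knockdown (log2 fold change -0.35 ± 0.16, adjusted p = 0.0651). The first call was lost with DESeq2 (adjusted p = 0.133) and without any 1 of Control replicates 1, 2 and 3 (0.0651, 0.0976 and 0.0517) or DNMT1 knockdown replicates 1 and 2 (0.262, with a log2 fold change of -0.24, and 0.0767). Without DNMT3B knockdown replicate 1 the second was called (0.0278).

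Of the ephrin-B ligands, EFNB2 (chromosome 13, 106489731 to 106535662), which binds EPHB4 and also signals into the cell that carries it, was the one that changed. EFNB2 stood at 56.5, 57.6 and 52.1 CPM in the Control libraries, 77.8, 80.2 and 78.7 CPM with DNMT1 knockdown and 61.6, 61.3 and 63.7 CPM with DNMT3B knockdown. The groups did not overlap, with Control lowest and DNMT1 knockdown highest. EFNB2 rose with DNMT1 knockdown (log2 fold change 0.51 ± 0.041, adjusted p = 7.31e-12) and, by less, with DNMT3B knockdown (log2 fold change 0.17 ± 0.042, adjusted p = 0.00125), and the direct difference was 0.34 ± 0.042 (adjusted p = 4.27e-08). EFNB1, which is X-linked, had 0.077 ± 0.057 (adjusted p = 0.289) and -0.02 ± 0.058 (adjusted p = 0.8). EFNB3, a ligand of the midline of the spinal cord, was near the detection limit at 0.458 ± 0.0168 CPM, 0.319 ± 0.123 CPM and 0.439 ± 0.126 CPM in Control, DNMT1 and DNMT3B knockdown, where a difference would be hard to detect at this depth (-0.51 ± 0.35 and -0.033 ± 0.33).

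In the Slit and ROBO genes, ROBO4 and SLIT2 fell and SLIT1 rose with DNMT3B knockdown, ROBO3 rose with DNMT1 knockdown, and ROBO1 had counts in the knockdown libraries alone. ROBO4 (chromosome 11, 124883691 to 124898500), a receptor known mainly from endothelium, stood at 2, 1.6 and 2.12 CPM in the Control libraries, 1.65, 2.22 and 2.74 CPM with DNMT1 knockdown and 0.818, 1.02 and 0.919 CPM with DNMT3B knockdown. Every DNMT3B knockdown library lay below every other library, and Control overlapped DNMT1 knockdown. ROBO4 fell with DNMT3B knockdown (log2 fold change -1.07 ± 0.21, adjusted p = 0.000105), was not called with DNMT1 knockdown (log2 fold change 0.20 ± 0.17, adjusted p = 0.378), and the direct comparison was called (log2 fold change 1.27 ± 0.22, adjusted p = 1.37e-05). The summed endothelial markers were at 13.4 to 15.5 CPM with DNMT3B knockdown against 10.9 to 12.3 in Control, and CDH5 and ERG, which define endothelium, had 17 and 2 counts in all libraries together. Of the 6 endothelial markers tested, CLDN5 was lower with DNMT3B knockdown, as ROBO4 was (log2 fold change -0.52, adjusted p = 0.0188; direct comparison 0.70, adjusted p = 0.00255), VWF (1.09) and ESAM (0.33) were higher, and 3 were not called. Their part in the ROBO4 result was not tested. ROBO3 (chromosome 11, 124865386 to 124881470), known from axons that cross the midline, was at 19.1, 18.1 and 20.3 CPM in the Control libraries, 21.8, 24.9 and 24.9 CPM with DNMT1 knockdown and 24.1, 19.8 and 19 CPM with DNMT3B knockdown. DNMT1 knockdown lay above Control, and DNMT3B knockdown overlapped both. ROBO3 rose with DNMT1 knockdown (log2 fold change 0.31 ± 0.07, adjusted p = 0.000592) and was not called with DNMT3B knockdown (log2 fold change 0.13 ± 0.073, adjusted p = 0.147), where it was called without DNMT3B knockdown replicate 3 (0.0327). The direct difference (log2 fold change 0.18 ± 0.073, adjusted p = 0.0398) was lost with DESeq2 (0.0943), with only the groups compared in the fit (0.0539) and without DNMT1 knockdown replicate 2 (0.15) or 3 (0.146) or DNMT3B knockdown replicate 2 (0.126) or 3 (0.306, log2 fold change 0.11), and it grew to 0.30 without DNMT3B knockdown replicate 1.

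ROBO1, the broadly expressed Slit receptor, had no count in any Control library. Its counts were 5, 5 and 4 with DNMT1 knockdown and 9, 3 and 5 with DNMT3B knockdown, in libraries of less depth than Control. All 6 knockdown libraries held reads of it and none of the 3 Control libraries did. With 3 counts set in place of 0 over the Control group, ROBO1 was 5.95-fold higher with DNMT1 knockdown and 7.50-fold higher with DNMT3B knockdown. These folds leave out the counting error of the knockdown counts and are not lower limits. In edgeR without the low-count filter its adjusted p was 0.000137 and 1.25e-05, and with the filter it was not tested. DESeq2 called ROBO1 with DNMT3B knockdown but not with DNMT1 knockdown. Its level was still low, at 0.018 ± 0.00233 and 0.0221 ± 0.0103 CPM per kb, where ROBO3 stood at 3.4 ± 0.255 and 2.98 ± 0.39. The 250 bases before its RefSeq starts on chromosome 3 (GRCh38.p14, minus strand, chr3:79019460-79019709 and chr3:79767999-79768248) are shown as a contrast to EPHA8. They hold 12 and 9 CG pairs, in capitals, beside 42 for EPHA8 and a median of 11 over all RefSeq entries.
ROBO1, downstream start: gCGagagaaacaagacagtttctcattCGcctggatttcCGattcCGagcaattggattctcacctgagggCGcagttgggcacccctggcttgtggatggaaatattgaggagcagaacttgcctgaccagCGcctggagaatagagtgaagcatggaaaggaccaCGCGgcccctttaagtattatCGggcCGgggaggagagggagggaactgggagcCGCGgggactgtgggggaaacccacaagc
ROBO1, upstream start: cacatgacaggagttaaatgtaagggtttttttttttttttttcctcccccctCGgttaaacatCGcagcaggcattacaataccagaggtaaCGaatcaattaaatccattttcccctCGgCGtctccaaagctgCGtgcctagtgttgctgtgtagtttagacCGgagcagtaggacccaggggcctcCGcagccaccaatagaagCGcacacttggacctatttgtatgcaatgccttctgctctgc
ROBO2 had 1 count, in DNMT1 knockdown.

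The Slit ligands differed among themselves. SLIT1 (chromosome 10, 96998038 to 97185920) was at 1.85, 2.16 and 2.12 CPM in the Control libraries, 2.23, 1.96 and 1.75 CPM with DNMT1 knockdown and 3.19, 2.91 and 2.41 CPM with DNMT3B knockdown. The DNMT3B knockdown libraries were above all others, and Control overlapped DNMT1 knockdown. SLIT1 was higher with DNMT3B knockdown (log2 fold change 0.47 ± 0.15, adjusted p = 0.00966) and lower in DNMT1 than in DNMT3B knockdown (log2 fold change -0.51 ± 0.16, adjusted p = 0.00915). Against Control the call was lost with DESeq2 (0.0675) and without Control replicate 1 (0.0514) or DNMT3B knockdown replicate 1 (0.087), and in the direct comparison without DNMT1 knockdown replicate 3 (0.0531) or DNMT3B knockdown replicate 1 (0.0739). SLIT2 (chromosome 4, 20253260 to 20620561), the most abundant Slit, moved the other way, from 11, 10.7 and 10.8 CPM in Control to 9.78, 8.08 and 8.81 CPM with DNMT3B knockdown, groups that did not overlap (log2 fold change -0.27 ± 0.08, adjusted p = 0.0049). With DNMT1 knockdown it was at 9.74, 11 and 10.4 CPM and was not called (log2 fold change -0.062 ± 0.077, adjusted p = 0.553); the direct call (log2 fold change 0.21 ± 0.084, adjusted p = 0.0375) was lost with DESeq2 (0.116), with only the groups compared (0.0537) and without DNMT1 knockdown replicate 2 (0.152) or 3 (0.0788) or DNMT3B knockdown replicate 2 (0.163) or 3 (0.103). SLIT3 had 18, 17 and 20 counts in the groups, a ratio to Control of 1.20 (95% exact interval 0.583 to 2.48) with DNMT1 knockdown and 1.47 (0.739 to 2.95) with DNMT3B knockdown, which covers counting error only.

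With DNMT1 knockdown the netrins NTN1 and NTN4 and the netrin receptors NEO1, UNC5A and UNC5B rose, NTN3 fell, and NTN5 was not called. With DNMT3B knockdown NTN1, NTN4 and UNC5A rose, NTN3, NTN5 and NEO1 fell, and UNC5B was not called. NTN1 (chromosome 17, 9021542 to 9244000), the classical secreted netrin, was at 10.9, 11.3 and 12.1 CPM in the Control libraries, 16.8, 16.3 and 17.2 CPM with DNMT1 knockdown and 15.7, 13.3 and 15 CPM with DNMT3B knockdown. The groups did not overlap, with Control lowest and DNMT1 knockdown highest. NTN1 rose with DNMT1 knockdown (log2 fold change 0.56 ± 0.069, adjusted p = 9.2e-08) and with DNMT3B knockdown (log2 fold change 0.37 ± 0.071, adjusted p = 6.8e-05). The difference between the knockdowns (log2 fold change 0.19 ± 0.07, adjusted p = 0.0294) was lost with DESeq2 (0.0965) and without DNMT1 knockdown replicate 1 (0.0553) or 3 (0.1) or DNMT3B knockdown replicate 2 (0.169).

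NTN4 (chromosome 12, 95657807 to 95791152), a netrin of basement membranes that binds laminin, was at 3.85, 3.95 and 3.56 CPM in the Control libraries, 6.89, 6.73 and 6.23 CPM with DNMT1 knockdown and 5.73, 6.52 and 6.09 CPM with DNMT3B knockdown. All knockdown libraries stood above all Control libraries, and the knockdown groups overlapped. NTN4 rose with DNMT1 knockdown (log2 fold change 0.81 ± 0.10, adjusted p = 1.04e-07) and with DNMT3B knockdown (log2 fold change 0.69 ± 0.10, adjusted p = 2.02e-06), and the direct comparison was not called (log2 fold change 0.12 ± 0.10, adjusted p = 0.325). The pseudogene PGAM1P5, opposite NTN4 over 16193 bases, stood at 0.131, 0.404 and 0.129 CPM in Control, DNMT1 and DNMT3B knockdown. The windows before its RefSeq starts on chromosome 12 (GRCh38.p14, minus strand, chr12:95790765-95791014 and chr12:95791156-95791405) hold 36 and 20 CG pairs, in capitals, and are shown because NTN4 was among the members with the largest rises.
NTN4, downstream start: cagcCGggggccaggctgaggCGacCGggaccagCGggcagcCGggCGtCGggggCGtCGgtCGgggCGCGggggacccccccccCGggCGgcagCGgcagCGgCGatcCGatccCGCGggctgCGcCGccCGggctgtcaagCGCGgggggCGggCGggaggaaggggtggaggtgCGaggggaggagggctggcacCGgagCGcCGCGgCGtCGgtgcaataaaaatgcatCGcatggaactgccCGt
NTN4, upstream start: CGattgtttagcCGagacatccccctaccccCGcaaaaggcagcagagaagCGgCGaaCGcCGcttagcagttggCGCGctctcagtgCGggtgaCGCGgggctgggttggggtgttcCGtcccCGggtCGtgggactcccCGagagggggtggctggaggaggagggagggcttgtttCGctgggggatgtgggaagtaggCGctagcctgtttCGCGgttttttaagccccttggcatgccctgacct

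NTN3 was lower with each knockdown and NTN5 with DNMT3B knockdown, both netrins of low abundance here. NTN3 (chromosome 16, 2471499 to 2474145) was at 1.67, 2.09 and 1.8 CPM in the Control libraries, 1.11, 1.45 and 1.16 CPM with DNMT1 knockdown and 1.31, 1.13 and 1.23 CPM with DNMT3B knockdown. Both knockdown groups lay below Control and overlapped each other. NTN3 was lower with DNMT1 knockdown (log2 fold change -0.56 ± 0.18, adjusted p = 0.0117) and with DNMT3B knockdown (log2 fold change -0.58 ± 0.18, adjusted p = 0.0094). The calls were lost with DESeq2 (0.0781 and 0.0691), and the first also without Control replicate 2 (0.0513) or DNMT1 knockdown replicate 1 (0.0581) or 3 (0.0521). NTN5 (chromosome 19, 48661407 to 48673081) was at 2.39, 3.13 and 2.5 CPM in the Control libraries, 2.06, 3.5 and 2.41 CPM with DNMT1 knockdown and 2, 1.99 and 1.76 CPM with DNMT3B knockdown. DNMT3B knockdown lay below the others, which overlapped. NTN5 was lower with DNMT3B knockdown (log2 fold change -0.47 ± 0.17, adjusted p = 0.0266), a call lost with DESeq2 (0.0866) and without Control replicate 2 (0.126) or DNMT3B knockdown replicate 3 (0.115). The direct difference (log2 fold change 0.47 ± 0.18, adjusted p = 0.0356) was lost with DESeq2 (0.102), limma-voom (0.0621) and without DNMT1 knockdown replicate 2 (0.366, log2 fold change 0.23) or DNMT3B knockdown replicate 3 (0.13). Opposite NTN5, SEC1P had a log2 fold change of -0.39 with DNMT3B knockdown (adjusted p = 0.178).

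UNC5A (chromosome 5, 176810477 to 176880898), a repulsive netrin receptor and dependence receptor, was at 5.04, 5.96 and 4.46 CPM in the Control libraries, 8.79, 9.42 and 9.97 CPM with DNMT1 knockdown and 8.63, 8.94 and 9.5 CPM with DNMT3B knockdown. Every knockdown library was above every Control library, and the knockdown groups overlapped. UNC5A rose with DNMT1 knockdown (log2 fold change 0.88 ± 0.10, adjusted p = 7.26e-09) and with DNMT3B knockdown (log2 fold change 0.82 ± 0.10, adjusted p = 2.59e-08), and the direct comparison was not called (log2 fold change 0.055 ± 0.091, adjusted p = 0.655). The bases between its RefSeq window's start and the first annotated exon (GRCh38.p14, plus strand, chr5:176810309-176810476) hold 19 CG pairs, in capitals, and are shown because UNC5A had the largest log2 rise against Control, in each knockdown, of the tested members other than EPHA8.
UNC5A: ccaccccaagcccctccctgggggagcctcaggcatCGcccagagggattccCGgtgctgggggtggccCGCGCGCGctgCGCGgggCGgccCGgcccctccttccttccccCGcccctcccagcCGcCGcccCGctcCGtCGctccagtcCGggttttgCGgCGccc
UNC5B (chromosome 10, 71212570 to 71302864), its more abundant relative, stood at 43.8, 43.5 and 43.9 CPM in the Control libraries, 54.1, 55.1 and 57.3 CPM with DNMT1 knockdown and 47.3, 43.6 and 47.1 CPM with DNMT3B knockdown. The DNMT1 knockdown libraries were above all others. UNC5B rose with DNMT1 knockdown (log2 fold change 0.34 ± 0.043, adjusted p = 9.58e-08), was not called with DNMT3B knockdown (log2 fold change 0.077 ± 0.044, adjusted p = 0.155) and differed directly by 0.27 ± 0.044 (adjusted p = 8.15e-06). UNC5C had 5, 3 and 9 counts in Control, DNMT1 and DNMT3B knockdown, and UNC5D 0, 5 and 1.

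NEO1 (chromosome 15, 73051710 to 73305206), which encodes neogenin, a receptor for netrins and for repulsive guidance molecules, was the most abundant netrin receptor at 102, 103 and 99.7 CPM in the Control libraries, 112, 116 and 121 CPM with DNMT1 knockdown and 77.9, 76 and 79.4 CPM with DNMT3B knockdown. The 3 groups did not overlap, with DNMT1 knockdown highest and DNMT3B knockdown lowest. NEO1 rose with DNMT1 knockdown (log2 fold change 0.19 ± 0.036, adjusted p = 6.12e-05) and fell with DNMT3B knockdown (log2 fold change -0.38 ± 0.038, adjusted p = 6.48e-10). The direct difference was 0.58 ± 0.038 (adjusted p = 7.16e-14).

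**Figure D4:**
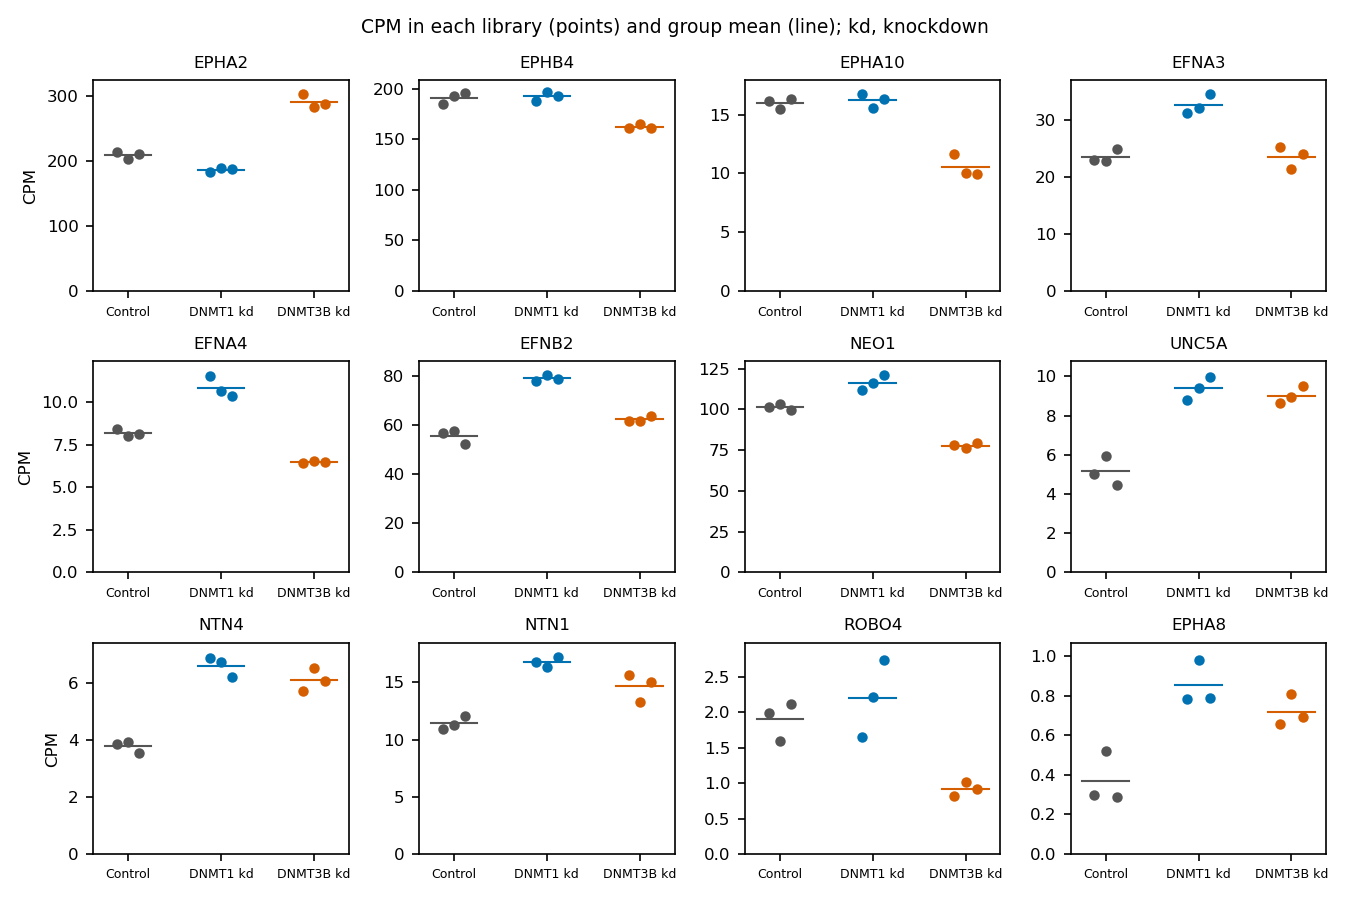
CPM of 12 guidance genes in each library (points, axes from 0), with the group mean as a line; kd stands for knockdown. EPHA2, EFNA4 and NEO1 lie on opposite sides of Control in the knockdowns, whereas UNC5A, NTN4, NTN1 and EPHA8 are above Control in all 6 knockdown libraries.

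RefSeq promoter windows were found for 33 of the 39 members, with 44 entries; EFNB3, EPHA10, NTN1, NTN3, UNC5B and UNC5D had none. CG, which is its own reverse complement, was counted in the 250 bases before each start. The member entries held a median of 19.5 CG pairs, and all 35116 entries of the table a median of 11. Entries of tested members held a median of 23 and those of members with too few counts 15. EPHA8 and EPHB2 had 42 in a window, a count that 1.38% of all entries reached, EFNA5 41, EFNB2 40 and UNC5A, NTN4 and EFNA2 36, which 4.85% reached. The UNC5A window runs into the first annotated exon, and the 168 bases before that exon, shown above, hold 19. EPHA2 had 15, and ROBO4 10. Among these CG-rich windows are genes that rose (EPHB2, EFNB2, UNC5A and NTN4, in each knockdown) and genes that fell with DNMT1 knockdown (EFNA5 and EFNA2, of which EFNA2 rose with DNMT3B knockdown). EPHA8 is left out of this list because it entered the test through the knockdown libraries. The rise of EPHB2 with DNMT3B knockdown and the fall of EFNA5 lost their calls in some settings, given with each gene. DNA methylation was not measured, and a CG count does not say whether a window is methylated.

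**Figure D5:**
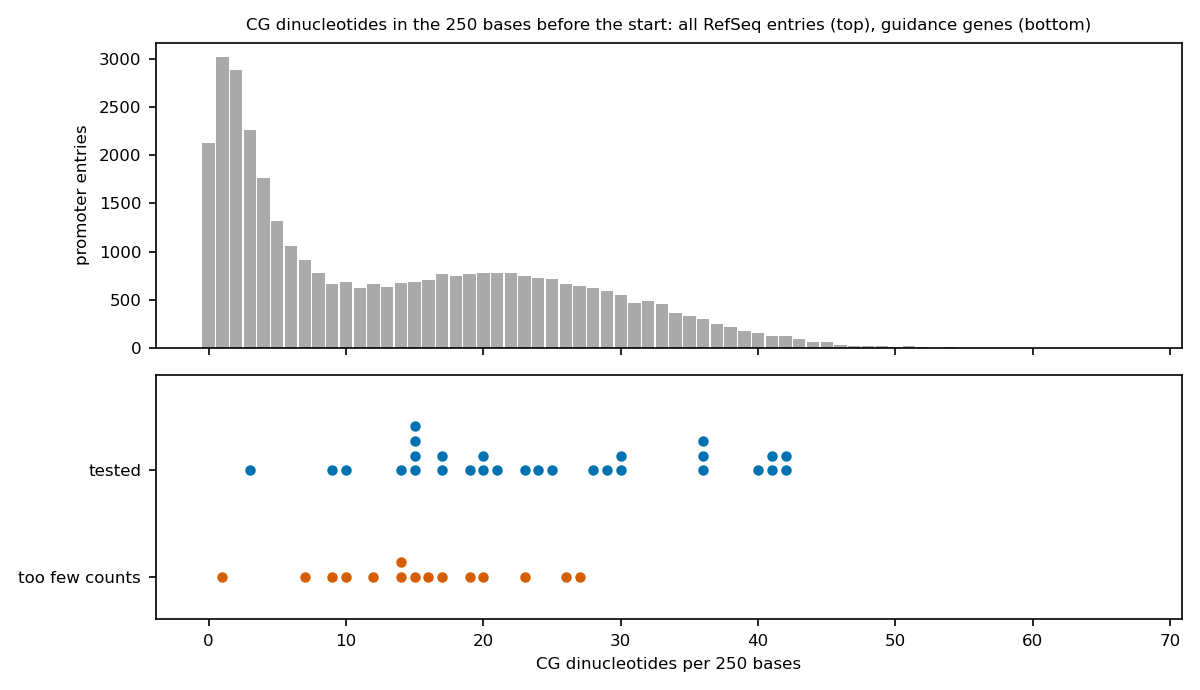
Number of CG dinucleotides in the 250 bases before each RefSeq start, for all 35116 entries (top, number of entries) and for the 44 entries of guidance genes (bottom, 1 point each, tested members in blue and members with too few counts in orange). Tested members reach 42, and members with too few counts reach 27.

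Genes that relay these signals inside the cell or modify the ligands were counted in the same way. Of 69 such relay genes (GTPase regulators, adaptors, kinases, co-receptors and other ligands), 63 were tested. In the 3 comparisons 61.9%, 68.3% and 66.7% of these were called, beside the 41.8%, 47.7% and 45.2% of all genes, and 24, 20 and 21 were not. Calls with a change of at least 1.3-fold numbered 8, 8 and 10 of the 63, beside 11.4%, 15.4% and 14.3% of all genes. Median absolute log2 fold changes were 0.129, 0.164 and 0.208, beside 0.147, 0.17 and 0.165 over all tested genes. With DNMT1 knockdown 28 rose and 11 fell, beside 21% and 20.8% of all genes. With DNMT3B knockdown 15 rose and 28 fell, beside 23.1% and 24.6%. Directly compared, 36 were higher and 6 lower with DNMT1 than with DNMT3B knockdown, beside 24.3% and 20.9%. The rises with each knockdown include ELMO1 and FLRT3, which passed the count filter through knockdown libraries, and the 36 include FLRT3. The median log2 fold changes were 0.079, -0.04 and 0.15, beside the values near 0 for all genes. KALRN, an exchange factor that activates RAC, was at 3.79 ± 0.305 CPM in Control and rose to 8.92 ± 0.264 CPM with DNMT1 knockdown (log2 fold change 1.24 ± 0.10, adjusted p = 2.83e-12) and 8.37 ± 0.478 CPM with DNMT3B knockdown (log2 fold change 1.15 ± 0.10, adjusted p = 2.35e-11). SRGAP3, which binds ROBO receptors, rose with each (0.72 ± 0.094 and 1.07 ± 0.09). DRAXIN, a secreted guidance protein that binds netrin and DCC, rose with DNMT1 knockdown (log2 fold change 1.16 ± 0.13, adjusted p = 7.76e-09) and by less with DNMT3B knockdown (log2 fold change 0.43 ± 0.15, adjusted p = 0.015), where the call was lost with DESeq2 (0.0796) and without DNMT3B knockdown replicate 2 (0.0578). TIAM1, another RAC exchange factor, rose with DNMT1 knockdown from 84.1 ± 0.689 CPM to 195 ± 5.61 CPM (log2 fold change 1.22 ± 0.035, adjusted p = 2.05e-23) and fell slightly with DNMT3B knockdown (log2 fold change -0.15 ± 0.038, adjusted p = 0.00117), a direct difference of 1.37 ± 0.036 (adjusted p = 5.71e-24).

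Among the relay genes that fell with DNMT1 knockdown were the adaptors GRB10 (-0.23 ± 0.042) and GRB2 (-0.21 ± 0.032) and the kinases PAK4 (-0.22 ± 0.041) and ROCK1 (-0.15 ± 0.038). With DNMT3B knockdown FLRT1, a ligand of UNC5 receptors, fell by the most (log2 fold change -0.66 ± 0.089, adjusted p = 2.39e-07), followed by GRB10 (-0.53 ± 0.043), the phosphatase PTPN13, which binds ephrin-B tails (-0.38 ± 0.043), and the heparan sulphate co-receptor SDC1 (-0.38 ± 0.041), while the focal adhesion kinase PTK2 rose (0.28 ± 0.032). In the direct comparison FLRT1 (0.54 ± 0.094) and the kinase subunit PIK3R1 (0.49 ± 0.049) were higher with DNMT1 knockdown, and SRGAP3 (-0.35 ± 0.086), ABL2 (-0.32 ± 0.035), SRGAP1 (-0.22 ± 0.035) and PAK4 (-0.18 ± 0.042) were lower.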

How the data were processed

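RNA of 9 libraries of HT29 cells was depleted of rRNA and sequenced. Raw, unscaled counts of reads for each gene symbol were deposited by the authors in 1 table. STAR, featureCounts and DESeq2 with GRCh38 (hg38) are named in the submitters' processing notes; versions, settings, annotation and the use of strand are, for this table, not given in the sources used, so values of overlapping genes are uncertain. The 9 columns were matched to the sample titles by hairpin target and replicate number, and 0 columns lacked a sample.

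The analysis used edgeR 4.0.16 in R 4.3.3: filterByExpr by group (16660 genes), TMM scaling and the quasi-likelihood test over all 9 libraries, group as the only term, with Benjamini-Hochberg adjustment over all tested genes. Every adjusted p is from edgeR unless DESeq2 1.42.0 or limma-voom (limma 3.58.1) is named. CPM use TMM-scaled totals, log2 fold changes carry their standard error after ±, and lengths are unions of exons in GENCODE 29, which held all 39 members. Overlaps between genes are of whole GENCODE 29 gene spans, introns included. Per-library values are given for members called in at least 1 comparison with a change of at least 1.3-fold and a mean of 0.5 CPM or more in the higher group. They are also given for EPHB4, ROBO3, SLIT2 and UNC5B, which were called with smaller changes. From the relay list, up to 4 genes per direction with at least 2 CPM are given by group mean or fold change. ELMO1 and FLRT3, below 2 CPM, are given per library. Members, lists and rules were chosen with earlier results of these data known. Totals of 18.8 to 33.7 M counts put the limit of a count of 0, 3 counts, at 0.0895 to 0.162 CPM. Intervals cover counting error only, and the folds of ROBO1 against 3 counts leave out the counting error of its knockdown counts. Alternatives were DESeq2, limma-voom, other scalings and filters, fits of only the groups compared, a replicate block and leaving out each library. The scripts were tested on simulated data.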

Additional observations from a re-analysis of the deposited data

How the results depend on the processing

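Results kept their direction, and counts of calls stayed within 1.5 times, in all 17 settings for each comparison: 2 other tools (DESeq2 and limma-voom), size factors from DESeq2 or total counts in place of TMM, the low-count filter dropped or raised to 1 CPM in 3 libraries, only the groups compared, the replicate block and the 9 fits that left out 1 library each. Members called with DNMT1 knockdown numbered 13 to 16 around the 15 given, with DNMT3B knockdown 15 to 22 around 20, and in the direct comparison 14 to 18 around 18; leaving out 1 library gave 13 to 15, 18 to 20 and 14 to 18. No member changed direction at a call, and the calls lost are given with each gene. EPHA8 and EPHB1 could not be tested with the 1 CPM filter. The samples share only a replicate number: deviations of same-numbered libraries correlated at -0.0944 to 0.0865, those of others at -0.087 to 0.0999, and 5 of 18 library and group pairs correlated best with their own number. With the replicate block 15, 20 and 18 members were called, as without it, and 6796, 7789 and 7379 of all genes in place of 6956, 7949 and 7534. Depth limits the members under about 1 CPM, EPHA8, EPHB1, EFNB3 and ROBO1 among them.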

Other observations

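Guidance mRNA was also summed per family and kb of exon. EphA receptors came to 64.4 ± 1.76 CPM per kb in Control (SD, n = 3), 58.4 ± 1.37 with DNMT1 knockdown and 81.3 ± 2.97 with DNMT3B knockdown, EphB receptors to 36.5 ± 0.993, 37.7 ± 1.03 and 32.4 ± 0.145, and netrin receptors to 20.1 ± 0.357, 24.6 ± 0.944 and 18.4 ± 0.534. Ephrin-A ligands lay between 44.2 and 48.7 CPM per kb in every library (45.5 ± 2.01, 48.4 ± 0.36 and 47.2 ± 1.62), and EFNA2, EFNA3, EFNA4 and EFNA5 were each called in at least 1 comparison. For this sum every DNMT1 knockdown library (48.0 to 48.7) was above every Control library (44.2 to 47.8), and DNMT3B knockdown overlapped both. Ephrin-B ligands summed to 18.8 ± 0.27, 23.8 ± 0.627 and 19.99 ± 0.679. The EphA sum followed EPHA2, which alone was at 50.3, 44.8 and 69.99 CPM per kb, while EPHA1, EPHA4 and EPHA10 were lower with DNMT3B knockdown. These sums were not tested.

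A pair of relay genes of low level is given as values only, chosen after these were seen. ELMO1, which with DOCK1 activates RAC, was at 0.209, 0.112 and 0.16 CPM in Control, 0.578, 0.895 and 0.956 CPM with DNMT1 knockdown and 0.696, 0.485 and 0.46 CPM with DNMT3B knockdown. FLRT3, a ligand of UNC5 receptors, was at 0.149, 0.149 and 0.0963 CPM, 0.413, 0.767 and 0.748 CPM and 0.123, 0.377 and 0.46 CPM in the same groups. Both entered the test through knockdown libraries, since their Control libraries lay below the count cutoff, so no p is given. Every DNMT1 knockdown library lay above every Control library in each gene. In FLRT3, DNMT3B knockdown replicate 1 lay within the Control libraries.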
